A study of Mus musculus with 16 samples.

Results

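The enzymes described here are the phase II conjugation enzymes of mouse liver, in 3 families: the UDP-glucuronosyltransferases (Ugt), the cytosolic sulfotransferases (Sult) and the cytosolic and mitochondrial glutathione S-transferases (Gst). Members were the rows of the expression table whose Ensembl identifier maps to a protein-coding mouse gene named Ugt1a, Ugt2a, Ugt3a, Ugt2b, Sult followed by a digit, or Gst followed by class letter a, k, m, o, p or t and a digit. The rule uses names and no measured value. It took 63 of 55487 rows, 21 in each family, and left out 7 rows with matching names that are not protein-coding.

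Phase II enzymes attach a water-soluble group to drugs, hormones, bilirubin, bile acids and reactive lipids so that they can be excreted in bile or urine. Glucuronosyltransferases sit in the endoplasmic reticulum and use UDP-glucuronate, sulfotransferases work in the cytosol and use the sulfate donor PAPS, and glutathione transferases join the tripeptide glutathione to electrophiles. The liver holds all of these reactions, and several of the genes lie in clusters of near-identical copies.

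Liver total RNA was sequenced from 16 male C57BL6/J mice, 1 library per mouse and 4 mice in each of 4 groups. All mice, the controls included, had eaten a 60 kcal% high-fat diet for 8 weeks from 10 weeks of age, and then received a high-fat diet with either standard protein (SP) or high protein (HP). G108, a long-acting glucagon analogue that acts on the glucagon receptor, was injected subcutaneously at 2.5 nmol/kg daily for 22 days, and vehicle was given to the other mice. The 4 groups are called by treatment and diet, as in vehicle SP or G108 HP. All mice were diet-induced obese and were culled on day 25 after a 4 h fast per the labels (the study's methods give another age, another time on the 60 kcal% diet and another cull day). The comparisons ask what G108 did to the liver on each diet, and whether dietary protein altered that.

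Depth ran from 27.8 M to 45.0 M gene reads per library, recovered from the deposited TPM (a transcript abundance per unit of length and of depth, which allows levels of different genes to be compared). Major urinary protein (Mup) genes, which encode abundant secreted liver proteins, took 42.6% to 49.7% of all TPM in vehicle SP mice, 35.7% to 44.9% in vehicle HP, 18.3% to 23.0% in G108 SP and 18.2% to 29.6% in G108 HP. Mitochondrial genes took 13.8% to 37.3% of TPM over the 16 libraries. Every other gene's TPM depends on such shares, so each library was divided by a median-of-ratios factor (0.681 to 1.54). Levels are given as scaled TPM unless deposited TPM is named. With TPM as deposited the median of all genes moved by 0.60 on the log2 scale for G108 against vehicle on SP and by 0.09 on HP, and by -0.01 and 0.00 after scaling. The 9 hepatocyte markers summed to 23276 to 35748 scaled TPM. The lowest sum was in vehicle SP mouse 4, which also had the highest summed blood cell markers (3096, against 658 to 2392 in the other libraries). Other cell type lists were low, with highest sums of 30.4 for cholangiocytes, 126 for Kupffer cells, 28.1 for endothelium, 22.3 for stellate cells, 81.7 for intestine and kidney, 12.2 for exocrine pancreas, 3.70 for adipocytes and 1.497 for muscle, and Lep, Mb and Prss2 were at 0. In bulk liver RNA, fewer cells of a type and less RNA per cell cannot be told apart.

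The Ugt1a genes have to be read with their structure in mind. The 9 protein-coding Ugt1a members lie on chromosome 1 (GRCm38, plus strand); each has its own first exon, which is spliced to 4 exons that all of them share. The shared exons hold 1311 bases of each gene, 59.9% of the 2190 exonic bases of Ugt1a9. The sequences below run 5′ to 3′ across the splice junction, with the last 24 bases of the gene's own first exon in lower case and the first 24 bases of the common exon (chr1:88215044-88215175) in capitals, and show how little of a transcript identifies its gene:
Ugt1a1, first exon chr1:88211959-88212871: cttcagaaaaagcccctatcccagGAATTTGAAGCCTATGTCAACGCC
Ugt1a9, first exon chr1:88070800-88071678: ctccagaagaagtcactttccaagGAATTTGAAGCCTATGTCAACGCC
Ugt1a10, first exon chr1:88055411-88056336: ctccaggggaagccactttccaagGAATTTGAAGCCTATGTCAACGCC
Ugt1a6a, first exon chr1:88138378-88139331: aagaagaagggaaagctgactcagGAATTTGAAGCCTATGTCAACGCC
The capitals are identical in all 9 genes. The last 24 own bases of Ugt1a6b were the same as those of Ugt1a6a, and Ugt1a2 and Ugt1a5 shared theirs as well. Reads in the common exons were counted into every one of the 9 rows, 7436 to 16599 reads per library, so these rows are not 9 separate measurements.

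The Gstp genes are the other cluster on which the results turn. Gstp1 and Gstp2, pi-class transferases, lie side by side on the minus strand of chromosome 19, and 54.8% of the 31-base stretches of the exons of Gstp2 also occur in Gstp1 (38.5% of those of Gstp1 occur in Gstp2), so how reads were split between them is uncertain. The 250 bases before each RefSeq start (GRCm38.p6, minus strand, written 5′ to 3′) are shown because both genes were highest in the same mice, with their longest identical run, 43 bases, in capitals:
Gstp1, chr19:4037913-4038162: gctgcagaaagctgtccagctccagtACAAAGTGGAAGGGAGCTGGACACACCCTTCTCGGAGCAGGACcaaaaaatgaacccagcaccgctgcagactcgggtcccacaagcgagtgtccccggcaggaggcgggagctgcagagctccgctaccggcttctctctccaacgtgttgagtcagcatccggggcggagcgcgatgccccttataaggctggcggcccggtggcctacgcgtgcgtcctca
Gstp2, chr19:4042222-4042471: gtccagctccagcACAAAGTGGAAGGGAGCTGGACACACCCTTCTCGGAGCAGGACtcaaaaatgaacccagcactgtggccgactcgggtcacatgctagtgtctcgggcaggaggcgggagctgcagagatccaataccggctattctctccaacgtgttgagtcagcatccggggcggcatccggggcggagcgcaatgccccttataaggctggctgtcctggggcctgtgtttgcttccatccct
The run ends 182 bases before the start of Gstp1 and 195 bases before that of Gstp2.

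Of the 63 members, 43 had a mean deposited TPM of at least 1 and were tested: 18 Ugt, 6 Sult and 19 Gst genes. The 20 others were too low to compare. Sult1c1, Sult2a1, Sult2a3, Sult2a4, Sult2a5, Sult2a6, Sult3a2 and Sult6b2 were at 0 in all 16 libraries. Ugt2a1, Ugt2a2, Sult2a2, Sult2b1, Sult3a1, Sult4a1, Sult6b1, Gsto2 and Gstt4 stayed at or below 0.157 scaled TPM. Sult1e1, the oestrogen sulfotransferase, ran from 0.0326 to 0.474, Sult2a7 from 0.288 to 1.31 and Ugt2b37 from 0.0982 to 1.09 scaled TPM.

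**Figure D1:**
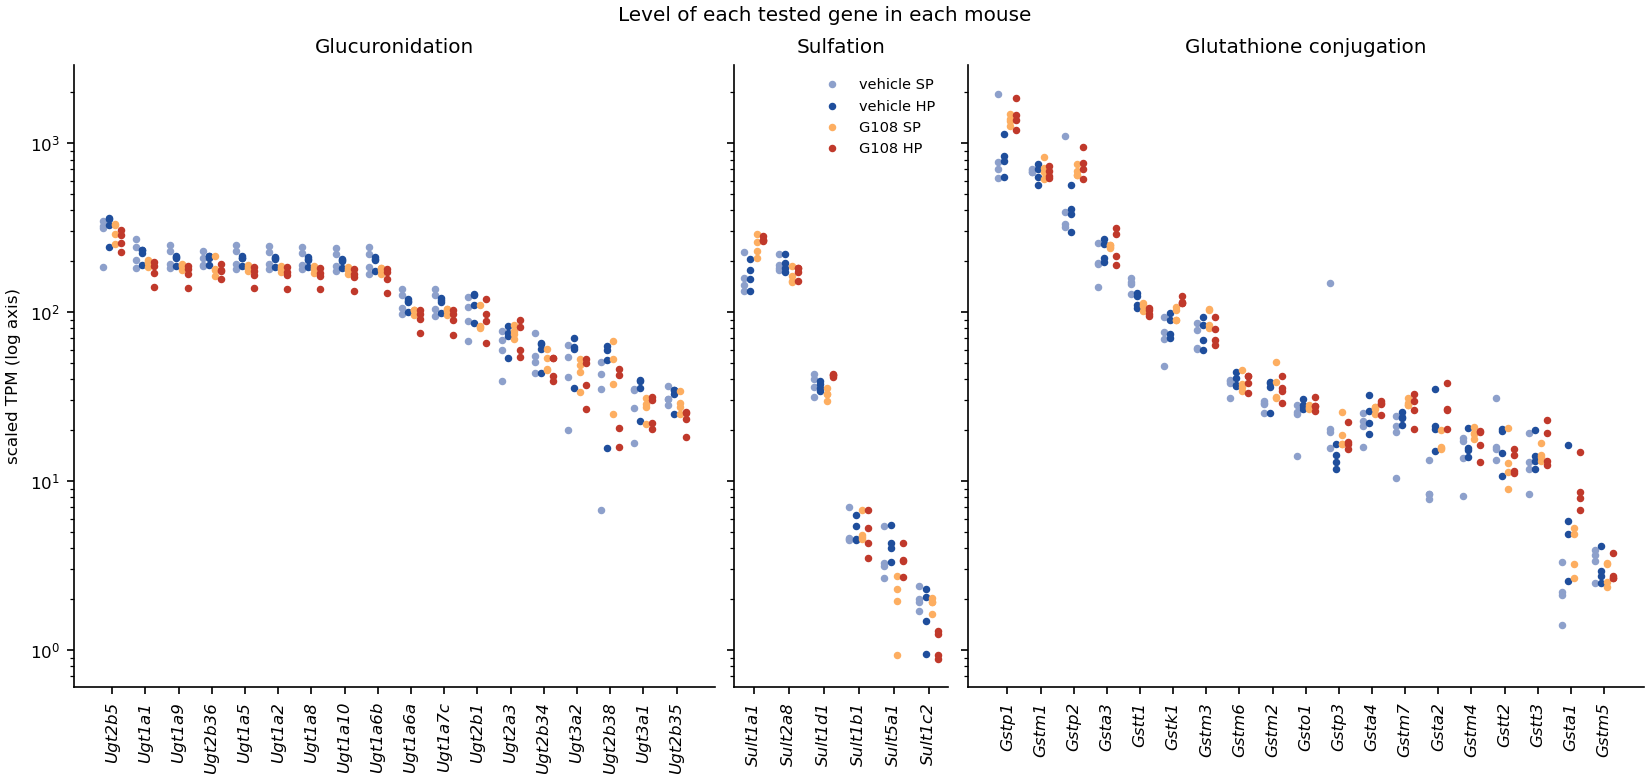
Level of each tested member in every mouse, in 3 panels by family. Each point is 1 mouse, coloured by group, and the vertical axis is scaled TPM on a log scale. Mean levels run from 1.67 (Sult1c2) to 1179 (Gstp1), and for most members the 4 groups lie on top of each other.

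Few members carried most of each family's level. Gstp1 (mean 1179 scaled TPM), the mu-class Gstm1 (682) and Gstp2 (598) made up 36.5%, 21.1% and 18.5% of the summed Gst level. The phenol sulfotransferase Sult1a1 (213) and the bile acid sulfotransferase Sult2a8 (180) made up 48.2% and 40.8% of the Sult level, with Sult1d1 at 8.46%. Glucuronidation was spread more widely: Ugt2b5 (296) held 28.5%, Ugt2b36 (193) 18.5%, the Ugt1a locus, counted once through its Ugt1a10 row, 17.8%, and Ugt2b1 9.39%. Ugt2b enzymes conjugate steroids and bile acids, and Ugt1a1 is the bilirubin glucuronosyltransferase.

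G108 on the SP diet changed 1 tested member after adjustment, and that member fell: Gstt1, a theta-class transferase that acts on small halogenated compounds. Its scaled TPM was 127, 147, 150 and 160 in vehicle SP mice 1 to 4 and 113, 110, 109 and 101 in G108 SP mice. All G108 SP mice were below all vehicle SP mice. The log2 fold change was -0.42 (SE 0.10, limma adjusted p = 0.028), and voom on the recovered reads also called it (adjusted p = 0.030). In deposited TPM the same comparison was 0.35 (adjusted p = 0.076), so the direction holds relative to the median gene and turns on the deposited scale. The call was lost without any one of vehicle SP mice 2, 3 and 4 and G108 SP mice 2, 3 and 4 (adjusted p 0.059 to 0.10, fold changes -0.43 to -0.38).

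On HP, Gstt1 was 124, 110, 130 and 106 with vehicle and 103, 106, 94.3 and 97.1 with G108. The groups met at 106, and the log2 fold change was -0.22 (SE 0.10, limma adjusted p = 0.39). The difference between the diets in the G108 change was 0.20 (SE 0.14, limma adjusted p = 0.58).

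Across all genes tested, 2.72% were called in this comparison, 17.7% had an unadjusted p under 0.05 and 9.21% had groups that did not overlap. Among the 43 members 1 was called, 10 had an unadjusted p under 0.05 and 4 did not overlap (Gsta2, Gstm2 and Gstm7 higher, Gstt1 lower). The members' median log2 fold change was -0.01, equal to that of all genes, with 21 above 0 and 22 below, and with the Ugt1a locus counted once it was 0.08, with 21 of 35 above 0 and 14 below. None of the 18 Ugt rows had an unadjusted p under 0.05 in limma or was called by voom. Their median was -0.16, and -0.053 over 10 genes with the Ugt1a locus counted once. The Sult genes had a median of -0.12, with 1 of 6 higher (Sult1a1) and 1 lower (Sult5a1) at an unadjusted p under 0.05. The Gst genes had a median of 0.35, 15 of 19 were above 0, and 7 were higher and 1 lower at an unadjusted p under 0.05, where 9.01% of all genes were higher by that measure. The 7 were Gsta2, Gsta4, Gstk1, Gstm2, Gstm3, Gstm4 and Gstm7, with adjusted p from 0.095 to 0.28. Without vehicle SP mouse 4, the library with the lowest hepatocyte and highest blood cell marker sums, the Gst median was 0.20, 14 of 19 were above 0 and 3 were higher and 1 lower at an unadjusted p under 0.05, beside 821 of 11839 genes higher. The part of those markers in the result was not tested. Without vehicle SP mouse 1 the median was 0.37 and 8 were higher by that measure.

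With TPM as deposited, 35 of the 43 members were called, all of them higher (15 Ugt, 5 Sult and 15 Gst), where 77.6% of all genes were called and 77% were called higher. The members' share is thus near the background on that scale. The direction of 21 members turned between the scales, 14 of them Ugt rows. Ugt1a1 went from -0.18 to 0.60 (adjusted p = 0.039), Ugt2b36 from -0.16 to 0.62 (adjusted p = 0.012), and Sult2a8 from -0.23 to 0.55 (adjusted p = 0.014).

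**Figure D2:**
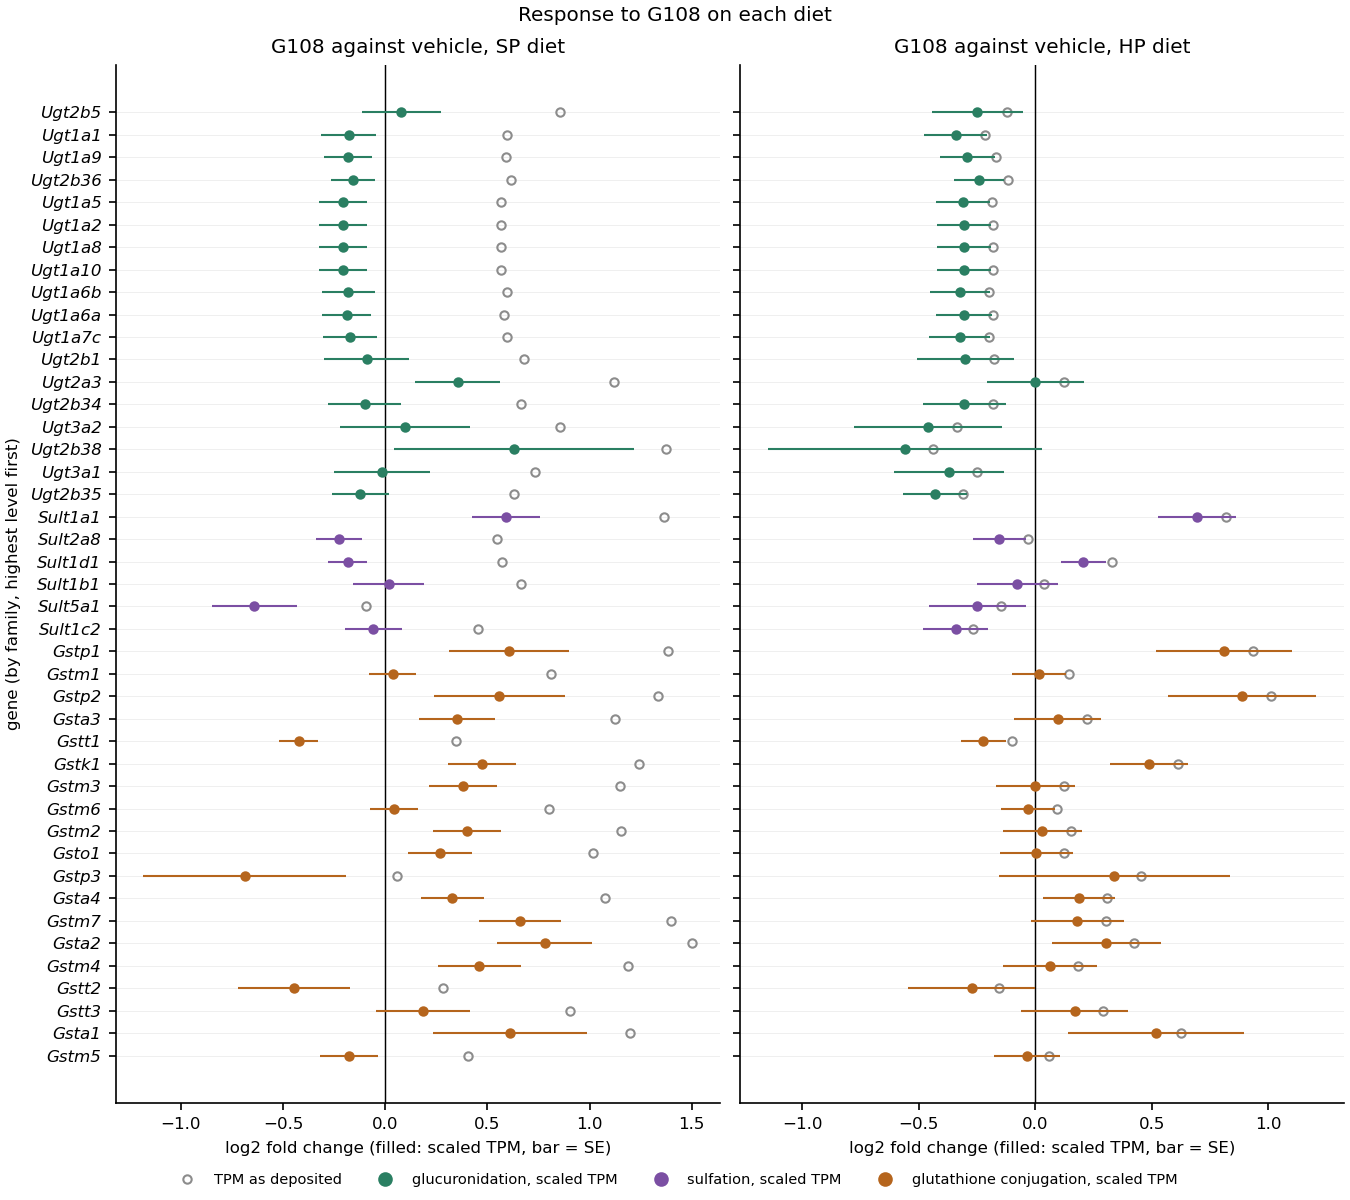
Log2 fold change of each tested member for G108 against vehicle, on SP (left) and HP (right). Filled points with bars are the scaled fit and its SE, coloured by family, and open grey points are TPM as deposited; on SP the open points lie to the right of the filled ones by 0.51 to 0.78, with a median of 0.77, and on HP by 0.075 to 0.13.

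G108 on the HP diet changed no member after adjustment: 0 of 43 were called by limma or by voom, where 1.22% of all genes were called by limma (1.11% with TPM as deposited, which also called 0 members). At an unadjusted p under 0.05 there were 18 members by limma and 16 by voom, against 11.3% of all genes. Of the 18, 5 were higher and 13 lower, but 9 of the 13 are the Ugt1a rows that count the same reads, and with that locus counted once it was 10 of 35. Groups did not overlap for 9 members, where 8.15% of all genes did not overlap (4.2% higher and 3.95% lower): Gstk1, Gstp1, Gstp2, Sult1a1 and Sult1d1 were higher, and the rows of Ugt1a2, Ugt1a5, Ugt1a8 and Ugt1a10, which are almost wholly the shared reads, were lower. The Ugt rows had a median of -0.31 with 17 of 18 below 0 (-0.32 with 9 of 10 below 0 when the Ugt1a locus is counted once). The Sult median was -0.11, and the Gst median was 0.10 with 15 of 19 above 0. The summed Ugt level was 1084, 882, 764 and 1025 scaled TPM in G108 HP mice 1 to 4, and 896, 1245, 1166 and 1256 in vehicle HP. Mitochondrial genes took 27.4% and 37.3% of TPM in G108 HP mice 2 and 3, the highest shares of the 16 libraries. The part of this in the Ugt result was not tested.

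Gstp1, a pi-class transferase, was the most abundant member. It read 1966, 776, 700 and 622 scaled TPM in vehicle SP mice 1 to 4, and 1271, 1350, 1391 and 1491 in G108 SP mice. Vehicle SP mouse 1 was above every other library in the series, and the other 3 vehicle SP mice were below every G108 SP mouse. The log2 fold change on SP was 0.60 (SE 0.29, limma adjusted p = 0.30). On HP the values were 1132, 789, 634 and 842 with vehicle and 1380, 1861, 1469 and 1197 with G108, groups that did not overlap, and the fold change was 0.81 (SE 0.29, limma adjusted p = 0.25).

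Gstp2, chosen after its values were seen, followed a similar pattern. Its scaled TPM was 1106, 393, 317 and 333 in vehicle SP, 648, 686, 648 and 751 in G108 SP, 569, 383, 298 and 405 in vehicle HP and 705, 943, 759 and 615 in G108 HP. The log2 fold changes were 0.56 (SE 0.32, limma adjusted p = 0.37) on SP and 0.89 (SE 0.32, limma adjusted p = 0.25) on HP. Gstp3, a low-expressed gene of the same cluster, was singled out after its values were seen: it was 148 in vehicle SP mouse 1 and 11.8 to 25.7 in the 15 other libraries. In that mouse the summed hepatocyte (32846), blood (876) and cholangiocyte (19.2) markers lay inside the range of the other libraries, as did the lists of the other cell types except stellate cells, whose sum of 14.4 was the lowest of the 16 libraries (15.2 to 22.3 in the others).

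The high vehicle SP mouse bears on the spread used for every gene. Without it, the SP comparison called 6 members: Gstp1 (0.98, limma adjusted p = 0.0097), Gstp2 (0.98, adjusted p = 0.012), Sult1a1 (0.75, adjusted p = 0.012), Gsta2 (0.94, adjusted p = 0.042) and Gstm7 (0.80, adjusted p = 0.043) higher, and Gstt1 (-0.49, adjusted p = 0.013) lower. The HP comparison, which does not contain that mouse but shares the estimate of spread, then called 3: Gstp1 (0.81, adjusted p = 0.034), Gstp2 (0.89, adjusted p = 0.028) and Sult1a1 (0.70, adjusted p = 0.026). The share of all genes called was higher as well, at 3.51% on SP and 1.49% on HP. With all 16 libraries none of these was called except Gstt1 on SP. Vehicle SP mouse 1 was singled out after its Gstp1, Gstp2 and Gstp3 values were seen. Leaving it out raises the SP fold changes of those genes and narrows their spread. The calls made without that mouse are therefore a description and no test.

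**Figure D3:**
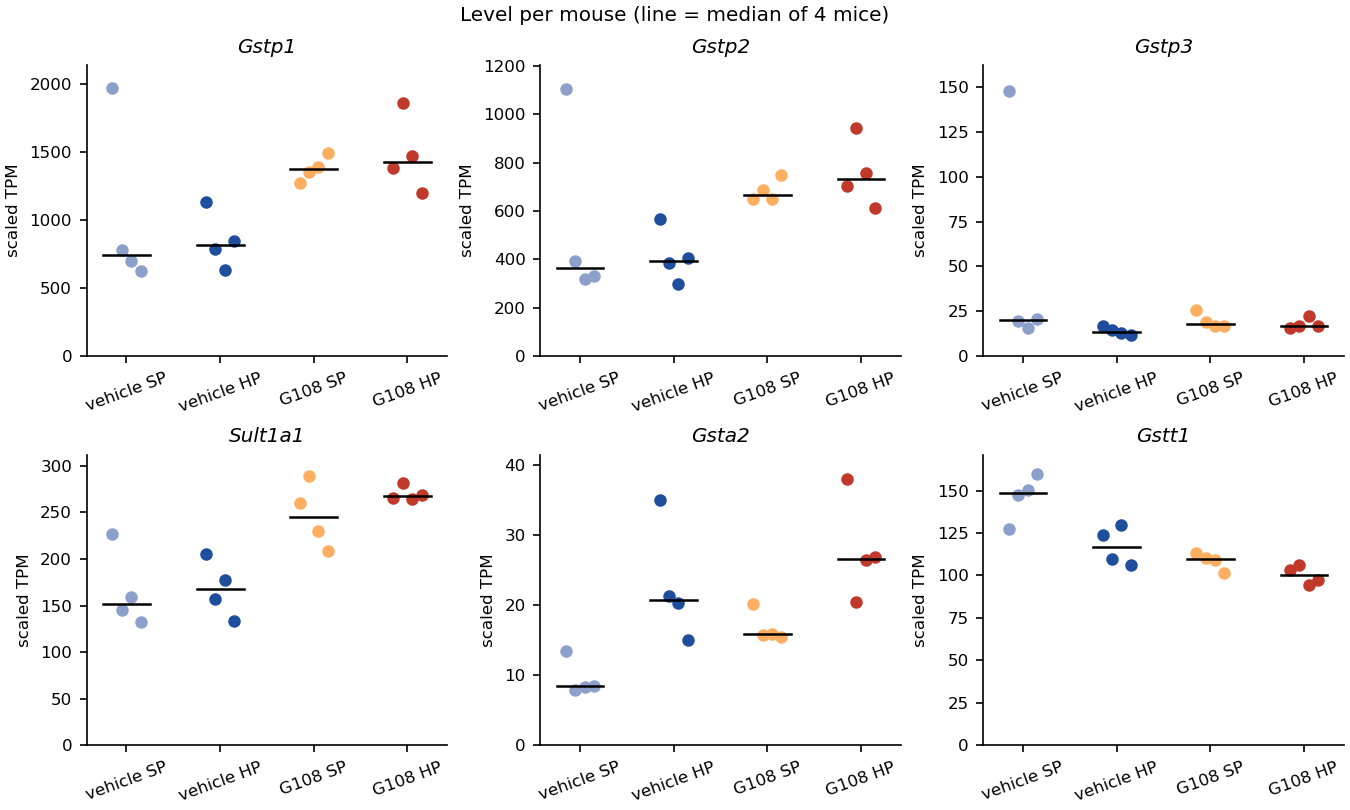
Scaled TPM of 6 members in each mouse, by group; points are mice and the line is the median of 4. Vehicle SP mouse 1 stands alone at the top for Gstp1, Gstp2 and Gstp3, while Gstt1 has its highest median in vehicle SP and Gsta2 its lowest.

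Among the other transferases, Gstm1, which conjugates a broad range of electrophiles, hardly moved: 675, 678, 699 and 695 in vehicle SP, 829, 616, 677 and 712 in G108 SP, 753, 703, 633 and 564 in vehicle HP, and 618, 733, 688 and 637 in G108 HP. Its log2 fold changes were 0.04 on SP and 0.02 on HP (SE 0.12 for both, limma adjusted p = 0.87 and 0.98), and leaving out 1 library turned either sign. Gstk1, the kappa-class enzyme of mitochondria and peroxisomes, was chosen after its values were seen. It read 93.3, 75.8, 69.6 and 48.0 in vehicle SP, 107, 103, 89.6 and 89.97 in G108 SP, 98.9, 69.8, 90.05 and 74.6 in vehicle HP, and 124, 113, 115 and 113 in G108 HP. The groups did not overlap on HP, and 1 vehicle SP mouse reached into the G108 SP range. Its fold changes were 0.47 on SP (limma adjusted p = 0.16) and 0.49 on HP (adjusted p = 0.22), each with an SE of 0.17, and without vehicle SP mouse 4 the SP value was 0.30 (adjusted p = 0.33).

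The alpha-class genes Gsta1 and Gsta2, classical inducible transferases, were low members, and none of their comparisons passed the limma test on scaled TPM with all 16 libraries. Gsta2, chosen after its values were seen, was 13.4, 7.85, 8.37 and 8.41 in vehicle SP, 35.0, 21.2, 20.3 and 15.02 in vehicle HP, 20.1, 15.8, 15.9 and 15.4 in G108 SP, and 38.0, 20.4, 26.4 and 26.8 in G108 HP. Every library of the other 3 groups was above all 4 vehicle SP mice. The log2 fold change was 0.78 (SE 0.23, limma adjusted p = 0.095) for G108 on SP, 0.31 (adjusted p = 0.71) for G108 on HP, 1.15 (adjusted p = 0.58) for HP against SP with vehicle and 0.68 (adjusted p = 0.80) for HP against SP with G108. Gsta1 had group means of 2.27 ± 0.80, 7.41 ± 6.14, 4.01 ± 1.25 and 9.52 ± 3.63 scaled TPM (SD, n = 4), in the order vehicle SP, then vehicle HP, then G108 SP and last G108 HP. Of its 31-base stretches 92.9% occur in other genes, 80.3% in the predicted gene Gm3776, and 60.7% of those of Gsta2 are shared, so both levels are uncertain.

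The mu-class gene Gstm7, chosen after its values were seen, was 24.4, 21.1, 19.4 and 10.4 in vehicle SP and 28.8, 31.1, 28.0 and 28.1 in G108 SP. These groups did not overlap, and the log2 fold change was 0.66 (SE 0.20, limma adjusted p = 0.10), or 0.41 (adjusted p = 0.16) without vehicle SP mouse 4. On HP it was 0.18 (adjusted p = 0.83). Of the remaining Gst genes, the log2 fold changes on SP ran from -0.45 (Gstt2) to 0.46 (Gstm4) and on HP from -0.27 (Gstt2) to 0.19 (Gsta4, which acts on lipid peroxidation aldehydes), with Gsto1, the omega-class reductase, at 0.27 and 0.00. Gstp3 was at -0.69 on SP and 0.34 on HP, its SP value resting on vehicle SP mouse 1.

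Sulfotransferases were represented by 6 tested genes. Sult1a1, the main phenol sulfotransferase, was 227, 145, 159 and 133 scaled TPM in vehicle SP, 260, 290, 230 and 209 in G108 SP, 206, 157, 178 and 133 in vehicle HP, and 266, 282, 264 and 269 in G108 HP. The HP groups did not overlap, and on SP vehicle mouse 1 lay inside the G108 range. Fold changes were 0.59 (limma adjusted p = 0.081) on SP and 0.70 (adjusted p = 0.062) on HP, with an SE of 0.17. On the deposited scale they were 1.36 (adjusted p = 0.00028) and 0.82 (adjusted p = 0.051).

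Sult2a8 was 189, 182, 220 and 177 in vehicle SP, 188, 152, 151 and 164 in G108 SP, 182, 173, 194 and 221 in vehicle HP and 183, 182, 152 and 173 in G108 HP. Both pairs of groups overlapped, with fold changes of -0.23 (SE 0.11, limma adjusted p = 0.31) and -0.15 (adjusted p = 0.70). Sult1d1, which sulfates catecholamines and other small phenols, was 35.8, 33.0, 32.8 and 29.7 in G108 SP and 42.5, 41.3, 43.1 and 42.6 in G108 HP, against 31.4 to 42.7 over the 8 vehicle mice. It had the only unadjusted p under 0.05 among members for the interaction of G108 and diet (0.39, SE 0.14, limma adjusted p = 0.58). The lower Sult5a1 was at -0.64 (adjusted p = 0.13) on SP and -0.25 on HP, Sult1c2 at -0.06 and -0.34, and Sult1b1, which sulfates thyroid hormones, at 0.02 and -0.08.

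Glucuronosyltransferase levels overlapped between groups in nearly every case. Ugt2b5, the highest, was 316, 322, 347 and 184 in vehicle SP, 291, 252, 330 and 334 in G108 SP, 243, 360, 326 and 357 in vehicle HP and 308, 256, 227 and 286 in G108 HP. Its fold changes were 0.08 (limma adjusted p = 0.83) and -0.25 (adjusted p = 0.73) with an SE of 0.19, and without vehicle SP mouse 4 the SP value was -0.13. Of its 31-base stretches 44.9% occur in Ugt2b38, so these rows are uncertain as well.

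The row of Ugt1a1, which includes the shared reads, was 202, 244, 270 and 182 in vehicle SP, 196, 186, 201 and 202 in G108 SP, 191, 233, 223 and 232 in vehicle HP, and 197, 169, 141 and 188 in G108 HP. Fold changes were -0.18 (SE 0.13, limma adjusted p = 0.48) and -0.34 (SE 0.13, adjusted p = 0.31). The remaining Ugt2 and Ugt3 genes ran from -0.16 (Ugt2b36) to 0.63 (Ugt2b38) on SP and from -0.56 (Ugt2b38) to 0.00 (Ugt2a3) on HP. Ugt2b38 ranged from 6.75 to 67.2 over the 16 mice, with an SE of 0.59. Ugt2b35 was at -0.12 on SP and -0.43 (SE 0.14, adjusted p = 0.19) on HP, and Ugt3a1, which uses N-acetylglucosamine in place of glucuronate, at -0.01 and -0.37.

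Because the Ugt1a rows share most reads, the excess of a row over the lowest of the 9 was taken as its own reads. Outside the shared exons, Ugt1a1, Ugt1a2, Ugt1a5 and Ugt1a9 have 0 exonic bases in another Ugt1a row. Ugt1a6a has 859 exonic bases that lie in another Ugt1a row as well, Ugt1a6b 133 and Ugt1a7c 993. The excess of the Ugt1a6a, Ugt1a6b and Ugt1a7c rows can therefore hold reads of another row and is not a separate measurement of 1 first exon. This split was made after the values were seen. Ugt1a9, which conjugates phenols, had 42, 19, 43 and 1 own reads in vehicle SP mice, 25, 77, 34 and 50 in vehicle HP, 49, 206, 328 and 377 in G108 SP and 176, 67, 54 and 257 in G108 HP. Ugt1a1 had 195 to 1424 in vehicle SP, 362 to 1667 in vehicle HP, 487 to 1738 in G108 SP and 255 to 967 in G108 HP. The rows of Ugt1a2, Ugt1a8 and Ugt1a10 had 0 to 17 own reads.

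Of the own reads of Ugt1a9 and Ugt1a1 together, Ugt1a9 took 5.65%, 1.81%, 2.93% and 0.51% in vehicle SP and 9.14%, 18.9%, 19.7% and 17.8% in G108 SP. It took 6.46%, 4.42%, 3.18% and 3.65% in vehicle HP and 16.3%, 17.8%, 17.5% and 21.0% in G108 HP. All 8 G108 mice were above all 8 vehicle mice. The shares rest on 196 to 2115 reads a mouse, with exact 95% Clopper-Pearson intervals, which cover counting error only, from 0.0129% to 2.81% in vehicle SP mouse 4 and from 6.84% to 11.9% in the lowest G108 mouse.

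The mean share was 2.73% ± 2.19 with vehicle and 16.4% ± 4.90 with G108 on SP, and 4.43% ± 1.45 and 18.2% ± 1.99 on HP (SD, n = 4), a difference of 13.7 percentage points on each diet. The mean on HP was 1.76 points above that on SP with G108 and 1.70 points above it with vehicle, and in both cases the groups overlapped. With Ugt1a6a reads, which can hold reads of Ugt1a7c, in place of Ugt1a1 reads the G108 differences were 14.2 and 9.15 points. The differences of HP from SP were then -3.45 points with G108, where the direction turned, and 1.58 points with vehicle, again with overlapping groups. Ugt1a9 was picked out of the 9 first exons after its groups were seen to lie apart, so these shares are a description and no test of them is given.

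In voom on the split reads, the log2 fold change of the own reads of Ugt1a9 was 3.52 (SE 1.02, voom adjusted p = 0.078) on SP and 1.48 (SE 0.79, adjusted p = 0.54) on HP. Neither was called, although Ugt1a9 had been picked for its values. For the own reads of Ugt1a1, Ugt1a5, Ugt1a6a, Ugt1a6b and Ugt1a7c it ran from 0.0099 (Ugt1a6a) to 0.75 (Ugt1a7c) on SP and from -1.06 (Ugt1a5) to -0.30 (Ugt1a6a) on HP. Those of Ugt1a7c can hold the same reads as those of Ugt1a6a and Ugt1a6b. The shared reads were at -0.21 (adjusted p = 0.35) and -0.31 (adjusted p = 0.30). The whole Ugt1a9 row was at -0.18 and -0.29, so the difference in the first exon was not visible in the deposited row. In 5 libraries the own reads of Ugt1a1 were under 5% of the shared reads (1.82% in vehicle SP mouse 4, 3.19% in vehicle HP mouse 1, 4.58% in G108 SP mouse 1, and 3.42% and 3.43% in G108 HP mice 2 and 3), against up to 12.4% elsewhere. The part of this in the share of Ugt1a9 was not tested.

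**Figure D4:**
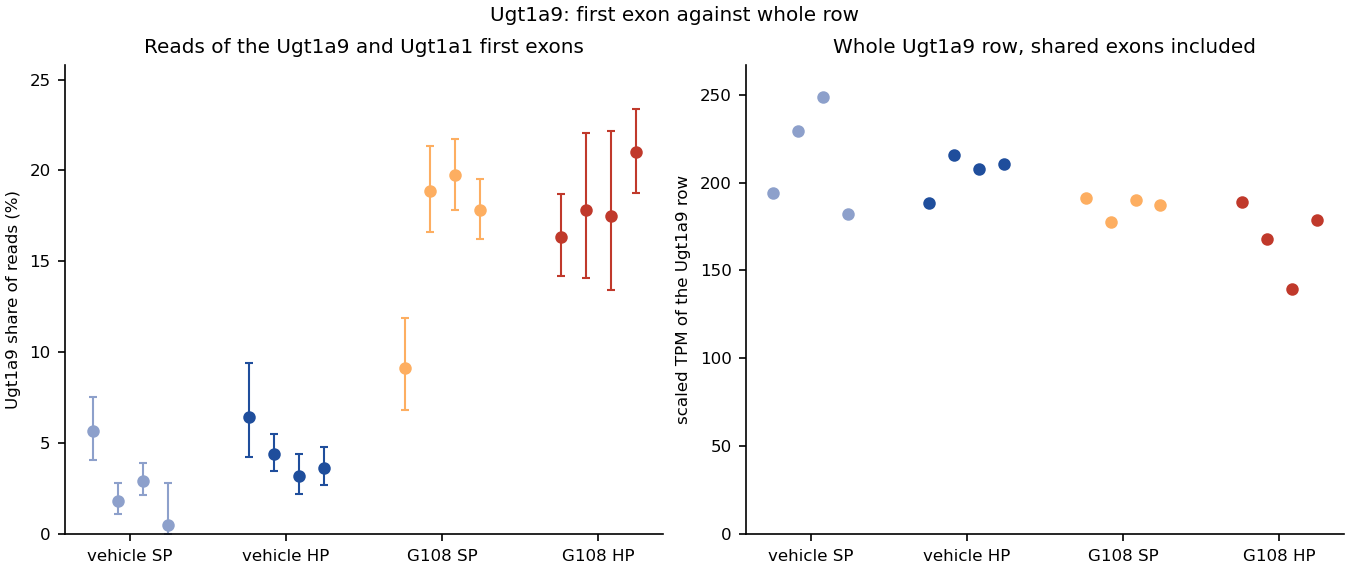
Left, share of Ugt1a9 among the own first-exon reads of Ugt1a9 and Ugt1a1 in each mouse, in percent, with exact 95% intervals for counting error; right, scaled TPM of the whole Ugt1a9 row. The 8 G108 mice lie between 9.14% and 21.0% and the 8 vehicle mice between 0.51% and 6.46%, while the whole rows overlap.

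Dietary protein changed no member after adjustment, with 0 of 43 called by limma or voom with G108, with vehicle and for the interaction, as for 0% of all genes. HP against SP with G108 gave an unadjusted p under 0.05 for 6 members by both tools, against 5.4% of all genes: Gsta1, Gsta2, Sult1d1 and Sult5a1 were higher and Sult1c2 and Ugt2b35 lower. Groups did not overlap for Gsta1, Gsta2, Gstk1, Sult1d1 (all higher) and Sult1c2 (lower), where 4.27% of all genes did not overlap. HP against SP with vehicle gave 4 members by both tools, Gsta1 and Gsta2 higher and Gstt1 and Gstp3 lower, against 3.94% of all genes, and 1 without overlap (Gsta2), against 2.01%. For the interaction it was 1 member, Sult1d1, by both tools, against 7.21%. The 2 diet comparisons and the 2 G108 comparisons share their groups and are not independent of each other.

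The summed level of each family depended on the scale. The Gst sum was 4578, 2558, 2494 and 2237 scaled TPM in vehicle SP, 3611, 3435, 3482 and 3720 in G108 SP, 3241, 2650, 2356 and 2480 in vehicle HP and 3592, 4291, 3616 and 3340 in G108 HP. Groups did not overlap on HP, and on SP only vehicle mouse 1 was above the G108 mice. The log2 ratio of group means was 0.26 on SP, or 0.55 without vehicle SP mouse 1, and 0.47 on HP. For the Sult sum it was 0.16 and 0.27, and for the Ugt sum -0.04 and -0.28. In deposited TPM the SP means went from 867 to 1416 for Ugt, 327 to 618 for Sult and 2344 to 4894 for Gst.

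**Figure D5:**
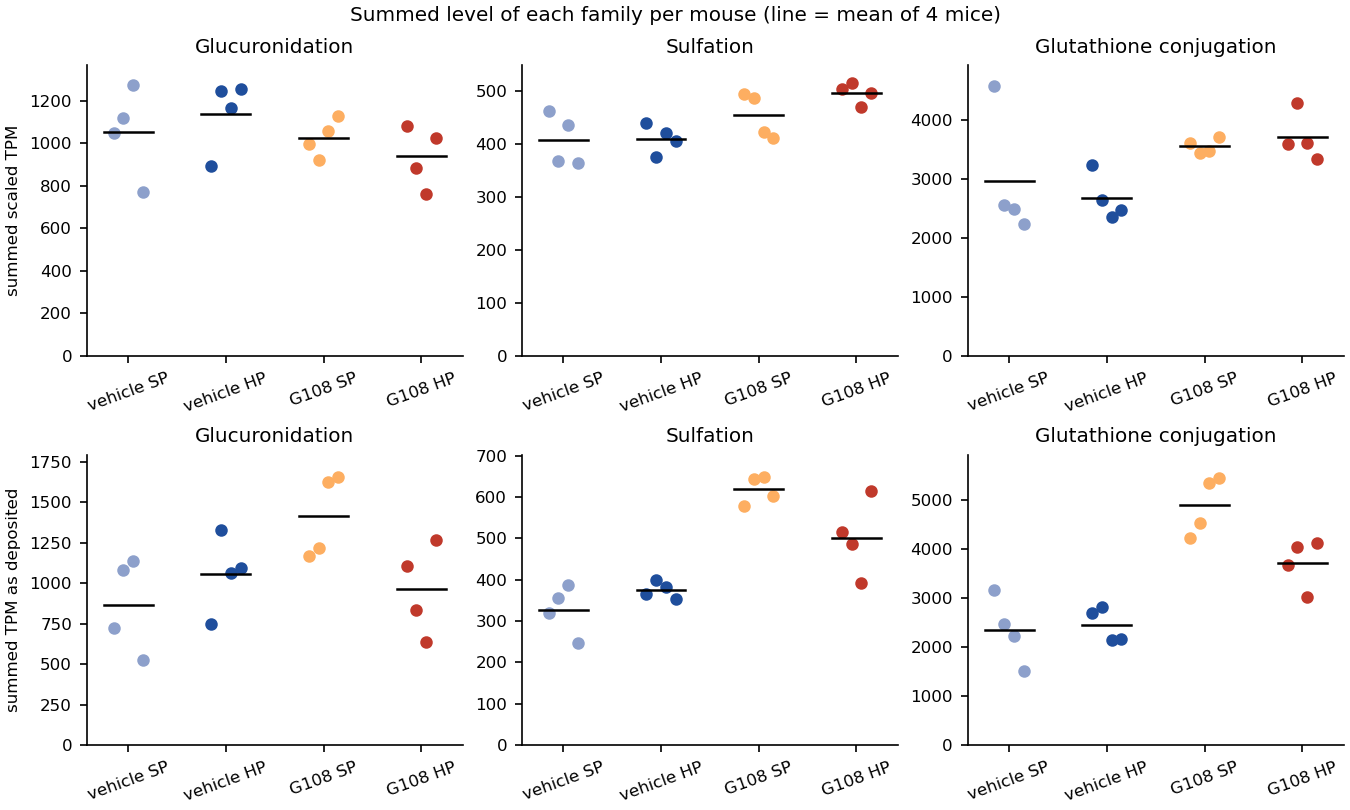
Summed level of each family in each mouse, by group, in scaled TPM (top row) and deposited TPM (bottom row); points are mice and the line is the mean of 4, with the Ugt1a locus counted once. In deposited TPM every family mean is higher in G108 SP than in vehicle SP, and after scaling the Ugt means are nearly equal.

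Genes that feed or surround conjugation were taken as lists by role, and few of them passed the test. No gene was called on either diet among 5 genes of UDP-glucuronate supply (highest level Ugp2, 0.32 on SP, limma adjusted p = 0.38), 8 of PAPS supply (Slc26a1, 0.17, adjusted p = 0.31), 10 of glutathione synthesis and breakdown (Lap3, 0.53, adjusted p = 0.18) and 6 of a list of glutathione transferases and other glutathione-linked enzymes outside the name rule (Mgst1, the microsomal enzyme, -0.48, adjusted p = 0.098). At an unadjusted p under 0.05 these lists held 1, 2, 4 and 2 genes on SP and 2, 0, 3 and 1 on HP. Of all genes, 17.7% on SP and 11.3% on HP were under that value. Their medians on SP were 0.09, 0.11, -0.10 and 0.04, beside -0.01 for all genes. With TPM as deposited 5 of 5, 7 of 8, 7 of 10 and 5 of 6 were called higher on SP, beside the 77% of all genes called higher on that scale.

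Of 15 enzymes of methyl, acetyl and amino acid conjugation, 2 rose and 2 fell with G108 on SP, where 2.72% of all genes were called. With TPM as deposited 9 were called higher and 0 lower, beside 77% of all genes called higher. Nnmt, which methylates nicotinamide, rose from 76.8 ± 56.6 to 188 ± 17.2 scaled TPM (SD, n = 4; 1.51, SE 0.37, limma adjusted p = 0.042) and the arsenic methyltransferase As3mt rose by 0.78 (adjusted p = 0.045). Tpmt, the thiopurine methyltransferase, fell by 0.61 (adjusted p = 0.0051) and Inmt, an indolamine methyltransferase, fell by 0.54 (adjusted p = 0.017), but on the deposited scale both were above 0 (0.08 and 0.23). On HP none was called, beside 1.22% of all genes, and Nnmt was at 1.26 (adjusted p = 0.14). There 5 had an unadjusted p under 0.05, beside 11.3% of all genes.

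Of 11 transporters of conjugates, 2 were called on SP and 1 on HP, all lower, where 2.72% and 1.22% of all genes were called. The organic anion transporter Slc22a7 fell on both diets, from 22.6 to 6.08 scaled TPM on SP (-1.77, SE 0.23, limma adjusted p = 0.00078) and from 11.1 to 3.96 on HP (-1.31, SE 0.23, adjusted p = 0.018). It was also called lower on the deposited scale (adjusted p = 0.0035 and 0.040). The exporter Abcg2 fell on SP by 0.56 (adjusted p = 0.017), and was at 0.07 in deposited TPM. On that scale 7 of the 11 were called higher on SP and Slc22a7 lower, beside 77% of all genes called higher.

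Of 12 regulators, 1 was called on SP and 0 on HP, where 2.72% and 1.22% of all genes were called. With TPM as deposited 5 others were called higher on SP, beside 77% of all genes called higher. Nr1i3, the constitutive androstane receptor, is a nuclear receptor known to induce conjugation genes. It fell on SP from 132 to 57.7 scaled TPM (-1.18, SE 0.25, limma adjusted p = 0.019). In deposited TPM it was at -0.42 (adjusted p = 0.082), and on HP at -0.30 (adjusted p = 0.76). The difference between the diets was 0.89 (SE 0.35, adjusted p = 0.58). In the diet comparisons and the interaction no gene of these lists was called.

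Promoters, the 250 bases before to 50 after each RefSeq start, were found for 55 of the 63 members and searched on both strands for 5 motifs, whose matches describe letters and not binding. The antioxidant response element TGACNNNGC was in those of Gsta3, Gstm5 and Gstm7, 5.45% of the members, and in 12.4% of 32851 promoters of the genome. The cAMP response element TGACGTCA was in 0 of the members' and 1.79% of all, and the xenobiotic response core GCGTG in 20% and 32.4%. The HNF1 recognition core GTTAAT was in a promoter of 25.5% of the members and in 7.10% of all promoters. Among those members were Ugt1a1, Ugt1a9 and Sult1a1, and also Sult2a3, Sult2a4, Sult2a5, Sult2a6 and Sult3a2, which were at 0 in all 16 libraries. The nuclear receptor core TGAACT was in 21.8% and 13.99%. Near-identical neighbours count separately in these shares. The members' shares count each gene once, if any of its promoters held the motif. The genome's shares count each promoter, so the shares are not like measures.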

How the data were processed

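Liver RNA of 16 mice was sequenced. The authors deposited 1 TPM table; per the submitters' processing notes, FastQC 0.11.8, HISAT2 2.0.5 on GRCm38, featureCounts and DESeq2 1.36.0 were used, and the counting of reads in overlapping genes is not given in the sources used here (shared Ugt1a reads were inferred from the values). Each deposited TPM was turned into reads with annotated exon lengths: 98.8% of 138454 values under 20 reads were whole within 0.02. Symbols matched 55227 of 55487 identifiers. Median-of-ratios factors came from 11591 genes. The main test was limma 3.58.1 (R 4.3.3, intensity trend) on log2(scaled TPM + 1), so low genes' changes are understated, for the 11839 genes whose mean TPM reached 1, 1 mean per group, Benjamini-Hochberg over all genes, called at an adjusted p under 0.05; p-values measure the spread between mice. Tests were checked on simulated normal values with no outlying library. Of 200 genes changed by 1 on the log2 scale in G108 SP, 74% were called, and 3.27% of the calls were wrong. Smaller changes were not simulated, so a member that was not called is not shown to be unchanged. Alternatives were deposited TPM, other filters, pseudocounts, subsets, a replicate block and voom.

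Members and lists were chosen with earlier results of these data known. Members given mouse by mouse were those called in the main test and the 2 highest per family. In each list the called genes, or else the highest, are named. Others are marked as chosen after their values were seen, except where a count names them.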

Additional observations from a re-analysis of the deposited data

Results flagged for a closer look

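A mouse far from the other 3 of its group was looked for in 156 sets of 4 values (each of the 34 tested members outside Ugt1a, the reads shared by the Ugt1a rows, the Ugt1a9 share and the 3 family sums, in each of the 4 groups), with Dixon's test at 95%, which by chance alone marks about 1 set in 20. It marked 11, and 5 of them were vehicle SP mouse 1: Gstp1 at 1966 scaled TPM (622 to 776 in the others), Gstp2 at 1106 (317 to 393), Gstp3 at 148 (15.6 to 20.4), Gsta2 at 13.4 (7.85 to 8.41) and the summed Gst level at 4578 (2237 to 2558). These 5 are not separate, since Gstp1 and Gstp2 share sequence and make up much of the sum.

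The 6 others were spread over the libraries. Ugt2b1 was 110 in G108 SP mouse 4 (80.7 to 82.6 in the others), Gsta2 20.1 in G108 SP mouse 1 (15.4 to 15.9), Gstm5 3.73 in G108 HP mouse 2 (2.66 to 2.75) and Gstt2 30.8 in vehicle SP mouse 4 (13.4 to 15.8). Sult1b1 was 6.996 in vehicle SP mouse 3 (4.48 to 4.59) and 6.76 in G108 SP mouse 2 (4.56 to 4.78).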

How the results depend on the processing

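The number of members called for G108 against vehicle on SP was 1, and it was 35 with TPM as deposited and 0 when only the groups compared were fitted. Another pseudocount, either other filter, a fit with no intensity trend and voom each called 1 on SP and 0 on HP. Leaving out 1 library gave 0 to 6 on SP and 0 to 3 on HP, where 0 were called with all libraries, and 0 in the diet comparisons and the interaction; the 1 call on HP without vehicle SP mouse 4 or without vehicle HP mouse 1 was Sult1a1 (adjusted p = 0.040 and 0.042), and without vehicle HP mouse 1 Gsta2 joined Gstt1 on SP (adjusted p = 0.046). With TPM rescaled without Mup and mitochondrial genes the 1 SP call was Sult1a1 (0.65, adjusted p = 0.037), and Gstt1 was at -0.36 (adjusted p = 0.13). In deposited TPM the log2 ratios of summed levels were 0.71 for Ugt, 0.92 for Sult and 1.06 for Gst on SP and 0.42 for Sult on HP. Leaving out 1 library they were 0.15 to 0.55 for Gst, 0.10 to 0.22 for Sult and -0.16 to 0.065 for Ugt on SP, and 0.39 to 0.57, 0.23 to 0.31 and -0.38 to -0.19 on HP.

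Signs turned on SP with TPM as deposited for Gstt1 (0.35), Sult2a8 (0.55) and Ugt1a1 (0.60), and for Gstm1 on HP with rescaling without Mup and mitochondrial genes (-0.061). Leaving out 1 library gave -0.042 to 0.10 for Gstm1 and -0.13 to 0.17 for Ugt2b5 on SP, and -0.057 to 0.082 for Gstm1 on HP; the cause of these turns was not tested. The Ugt1a9 difference was 12.6 to 16.1 points on SP and 12.8 to 14.4 on HP without 1 library, and 9.15 on HP with Ugt1a6a reads in place of Ugt1a1 reads.

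Deviations of same-numbered mice correlated at -0.567 to 0.529, with a median of -0.028 and 8 of 24 pairs over 0.1. With 4 mice per group these values cannot show whether the numbers stand for pairs or a shared batch. The main fit did not use the numbers. With the number as a replicate block, HP against SP with vehicle called 1 member, Gsta2 (1.15, adjusted p = 0.025), and the 1 SP call was Gsta2 (0.78, adjusted p = 0.013) in place of Gstt1 (adjusted p = 0.073). Over all genes the calls on SP and HP were 322 and 145, against 213 and 35 with the block, 103 and 52 with only the groups compared and 233 and 43 with no filter; a mean TPM of at least 5 gave 77 on HP, and deposited TPM 9185 on SP. Leaving out 1 library gave 158 to 471 on SP, with 214, 175, 158 and 159 without vehicle SP mouse 3 and G108 SP mice 2, 3 and 4, and 17 to 210 on HP, with 26, 18, 80, 38, 17 and 43 without vehicle HP mice 3 and 4, G108 SP mouse 2 and G108 HP mice 2, 3 and 4.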

Other observations

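Ugt2b38, chosen after its values were seen, was lowest in the same 5 libraries in which own reads of Ugt1a1 were under 5% of the shared Ugt1a reads: 6.75 scaled TPM in vehicle SP mouse 4, 15.8 in vehicle HP mouse 1, 15.9 and 20.5 in G108 HP mice 3 and 2 and 25.0 in G108 SP mouse 1, against 35.0 to 67.2 in the 11 others. These libraries come from all 4 groups, and their common ground was not tested.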
